A study of Mus musculus with 2 samples.

Results

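The genes of histone acetylation examined here are 39 mouse genes, of 22359 protein-coding genes with an annotated transcription start site (TSS) on mm9. They were listed by name from their known function, with earlier results of these data known. The list comprises 15 genes of acetyltransferases and subunits of acetyltransferase complexes (writers), 23 genes of deacetylases and subunits of deacetylase complexes (erasers), and Brd2, which encodes a reader of acetylated lysine. Chromatin came from wild type mouse embryonic stem cells (mESCs), labelled E14, of the 129P2/OlaHsd background at passage 26, and both libraries share all of this. It was crosslinked with formaldehyde, sheared and precipitated with antibodies raised in rabbits against Msl1 (number 3208) or Nsl1 (number 3130), and 1 library was sequenced per antibody. The cells had been grown on CD1 feeder cells and were moved to feeder-free dishes for a passage before use, and a share of feeder chromatin was not tested. RNA was not measured in these libraries, so the cell type could not be checked against expressed marker genes.

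Histone acetyltransferases transfer acetyl groups to lysines of histone tails, and deacetylases remove them, either with zinc in the active site (the Hdac proteins) or with NAD as a cosubstrate (the sirtuins). Most of these enzymes act inside large complexes, such as the Tip60, Moz, Morf and Hbo1 complexes among writers and the Sin3, NuRD and CoREST complexes among erasers, whose other subunits direct them to chromatin. Msl1 and Nsl1 are subunits of the MSL and NSL complexes, which share the acetyltransferase Mof. The question here is where these complexes lay at the genes that encode the rest of the acetylation machinery, and whether writers differed from erasers.

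After removal of mitochondrial reads and of repeats of a position and strand, the Msl1 library held 19483142 reads and the Nsl1 library 24883001. For each TSS, the reads within 500 bases on both sides, a window of 1 kb, were divided by a local level taken from that library, the mean reads per kb between 5 and 50 kb away upstream and downstream. This ratio is 1 where the TSS held no more reads than its surroundings. With no Input library, reads that a promoter gains apart from the antibody were not separated from binding. The local level at the members ranged from 6.16 to 28.9 reads per kb for Msl1 and from 8.84 to 24.9 for Nsl1. The 95% confidence intervals, given in brackets, are exact Poisson intervals of the read number, or exact binomial intervals for ratios of 2 read numbers, and cover counting error only. Since each antibody had 1 library, there was no replicate check, no p-value is given, and setting Msl1 beside Nsl1 sets 2 libraries side by side. These libraries also differed in library kit and in read length (50 bases for Msl1 and 36 for Nsl1), which cannot be told apart from the antibody. In a mixed chromatin sample, binding in fewer cells and weaker binding per cell cannot be told apart either.

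The DNA just upstream of the TSS is shown for 8 members at or near the ends of the range, 200 bases each, written 5′ to 3′ on the strand of the gene and ending at the base before the TSS. Capitals mark CpG dinucleotides, which many promoters active in mESCs hold at high density. Sirt6, Ing4 and Ep400 had the highest Nsl1 ratios, Sin3a and Brpf1 were among the 4 highest Msl1 ratios, and Hdac4, Brd1 and Hdac9 had the lowest Nsl1 ratios. Coordinates and sequence are of mm9.
Sirt6 (chr10:81090066-81090265, minus strand): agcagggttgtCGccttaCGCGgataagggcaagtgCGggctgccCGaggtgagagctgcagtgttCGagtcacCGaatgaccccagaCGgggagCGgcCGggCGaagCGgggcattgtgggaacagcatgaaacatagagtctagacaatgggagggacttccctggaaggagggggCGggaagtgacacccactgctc
Ing4 (chr6:124989578-124989777, plus strand): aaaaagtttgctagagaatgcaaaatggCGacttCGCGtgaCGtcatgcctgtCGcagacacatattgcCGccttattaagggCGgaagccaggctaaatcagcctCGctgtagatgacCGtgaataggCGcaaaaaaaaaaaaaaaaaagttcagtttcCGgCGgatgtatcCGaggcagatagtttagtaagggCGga
Ep400 (chr5:111199737-111199936, minus strand): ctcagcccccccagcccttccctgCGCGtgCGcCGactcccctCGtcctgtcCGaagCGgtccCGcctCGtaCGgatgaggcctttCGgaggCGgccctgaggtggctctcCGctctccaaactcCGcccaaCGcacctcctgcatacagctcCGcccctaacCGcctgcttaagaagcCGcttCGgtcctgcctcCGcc
Sin3a (chr9:56923983-56924182, plus strand): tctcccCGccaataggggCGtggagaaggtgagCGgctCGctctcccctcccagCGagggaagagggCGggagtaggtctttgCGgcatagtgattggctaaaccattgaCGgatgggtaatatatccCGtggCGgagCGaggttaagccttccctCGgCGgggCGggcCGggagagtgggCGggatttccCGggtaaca
Brpf1 (chr6:113257018-113257217, plus strand): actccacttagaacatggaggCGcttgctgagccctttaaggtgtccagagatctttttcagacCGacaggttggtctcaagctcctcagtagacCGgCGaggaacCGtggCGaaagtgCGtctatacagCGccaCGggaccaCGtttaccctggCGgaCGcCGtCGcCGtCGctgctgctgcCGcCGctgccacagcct
Hdac4 (chr1:94044971-94045170, minus strand): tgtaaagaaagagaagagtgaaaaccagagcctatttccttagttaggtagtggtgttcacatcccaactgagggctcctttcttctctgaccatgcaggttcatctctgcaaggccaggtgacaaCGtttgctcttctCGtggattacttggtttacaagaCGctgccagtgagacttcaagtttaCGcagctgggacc
Brd1 (chr15:88561202-88561401, minus strand): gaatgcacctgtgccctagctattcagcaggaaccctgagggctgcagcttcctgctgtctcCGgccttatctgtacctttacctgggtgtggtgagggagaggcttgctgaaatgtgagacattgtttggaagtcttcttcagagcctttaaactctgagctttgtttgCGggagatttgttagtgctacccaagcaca
Hdac9 (chr12:35213755-35213954, minus strand): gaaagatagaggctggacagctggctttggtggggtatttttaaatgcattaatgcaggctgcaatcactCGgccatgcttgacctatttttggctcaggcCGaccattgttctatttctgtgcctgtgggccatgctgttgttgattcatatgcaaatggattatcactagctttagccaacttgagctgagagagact
Between 13 and 20 CpGs stood in the first 5 stretches, whereas the stretches of Hdac4, Brd1 and Hdac9 held 4, 2 and 2. RefSeq does not share the starts used for Hdac4 and Brd1, and at the RefSeq start of Hdac4 the Nsl1 ratio was 2.12. Low Nsl1 ratios were also found at starts rich in CpG. Sin3a had a Nsl1 ratio of 1.69, and Mta1, the next lowest member, had 1.02 with a ratio of observed to expected CpG of 1.02.

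At the 39 TSSs, the median Msl1 ratio was 2.20 and the median Nsl1 ratio was 2.33, against 1.84 and 1.71 over the 22168 protein-coding TSSs with reads in their surroundings. A ratio of at least 3 was reached at 13 members (33.3%) for Msl1, where 23.5% of all TSSs reached it, and at 12 members (30.8%) for Nsl1, where 24.2% of all TSSs did. With a window of 1000 bases the Nsl1 count was 4, of which 2 were writers and 2 erasers, below the 13.7% of all TSSs in that window. These were Sirt3, Sirt6, Ing3 and Ing4, and their Msl1 ratios in that window ran from 1.67 to 2.77, under 3. Within 500 bases, both libraries reached 3 at 5 members, Hdac2, Sirt6, Sin3b, Epc2 and Brpf1, against 11.8% of all TSSs. Only Msl1 reached it at 8 members (11.7% of all TSSs), only Nsl1 at 7 (12.3% of all), and neither at 19 (64.2% of all). At a ratio of at least 2, the counts were 21 for Msl1 and 25 for Nsl1, where 45.8% and 41.5% of all TSSs passed. Across the 39 genes, the Msl1 and Nsl1 ratios had a Pearson r of 0.14 and a Spearman rho of 0.32, which is a description over genes that share both libraries, and over all 22168 TSSs r was 0.52 and rho was 0.63. The order of the members thus differed between the libraries, as the next paragraphs give gene by gene.

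**Figure D1:**
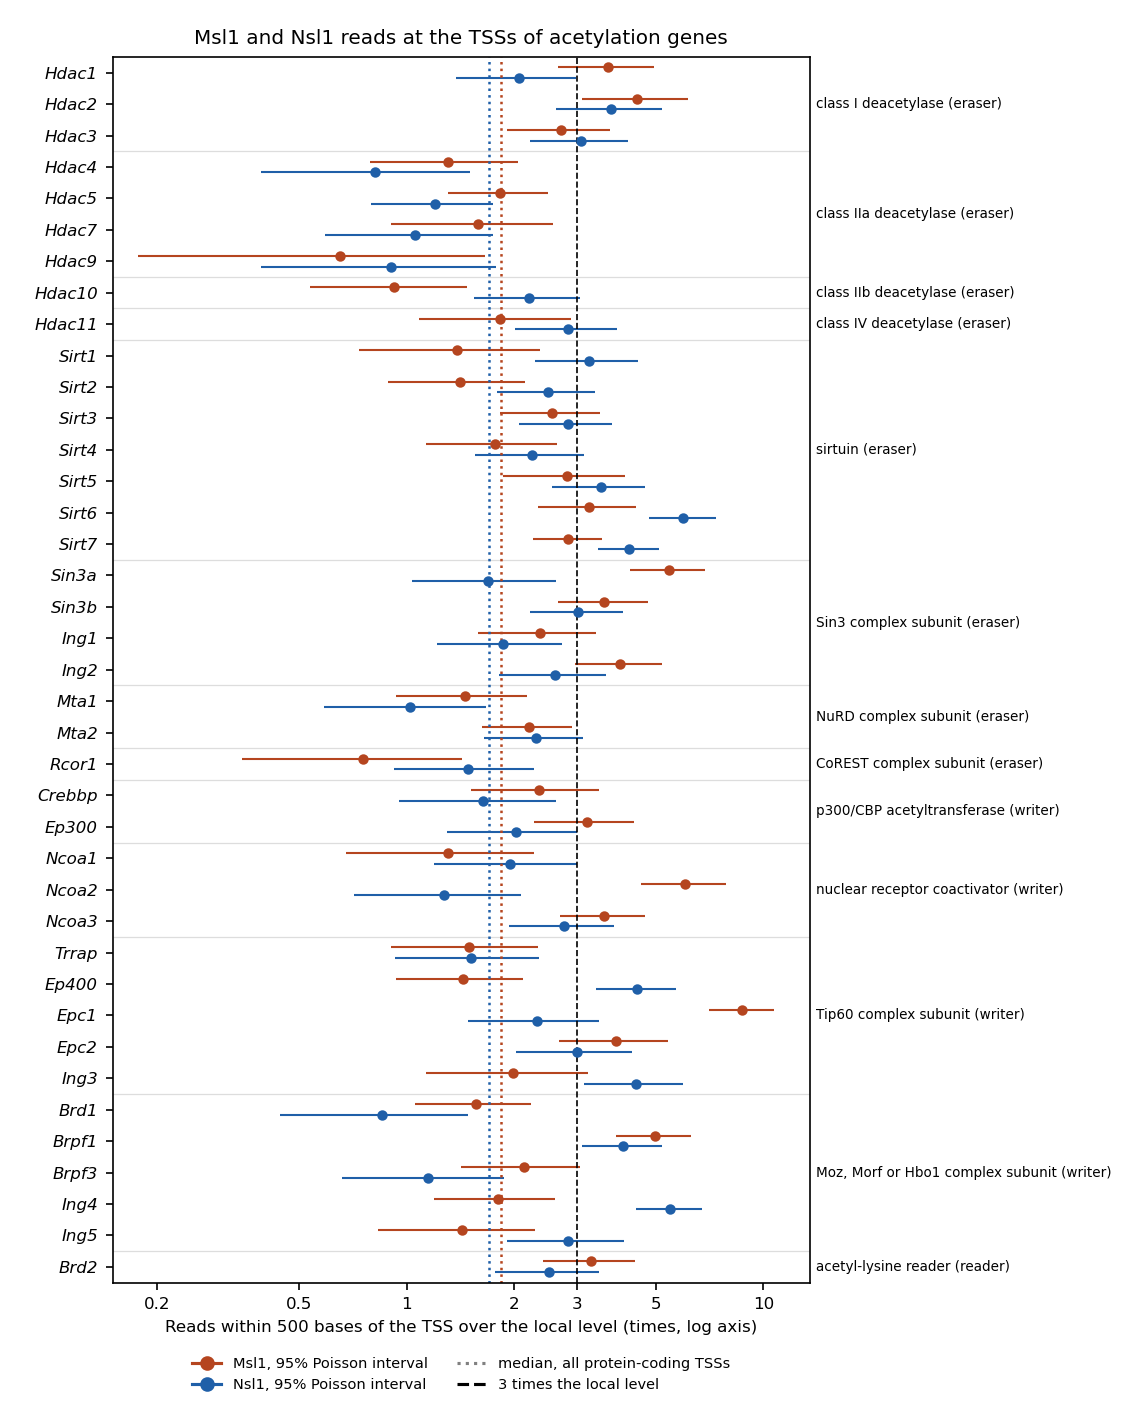
Reads within 500 bases of the TSS over the local level (times, log axis) at the 39 acetylation genes, for Msl1 (red) and Nsl1 (blue), with exact 95% Poisson intervals. Dotted lines mark the medians of all protein-coding TSSs (1.84 for Msl1 and 1.71 for Nsl1) and the dashed line marks 3. Msl1 was highest at Epc1 (8.73) and Nsl1 at Sirt6 (5.96), and the starts used for the 4 class IIa deacetylase genes lay below 2 in both libraries.

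Of the class I deacetylases, Hdac1 and Hdac2 are the catalytic subunits of the Sin3, NuRD and CoREST complexes, and Hdac3 is that of the NCoR and SMRT corepressors. All 3 TSSs held reads above their surroundings in both libraries. At Hdac1, 43 Msl1 reads gave a ratio of 3.68 (2.66 to 4.95) and 28 Nsl1 reads a ratio of 2.07 (1.37 to 2.99). At Hdac2, both libraries held 36 reads, with ratios of 4.43 (3.10 to 6.13) for Msl1 and 3.75 (2.62 to 5.19) for Nsl1. At Hdac3, the 38 Msl1 reads gave 2.70 (1.91 to 3.71) and the 42 Nsl1 reads 3.08 (2.22 to 4.17). The intervals of the libraries overlapped at each of these genes. At Hdac3 the 200 bases with most Msl1 reads lay 300 bases upstream of the TSS, and the divergent gene Rell2 starts 571 bases upstream.

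The class IIa deacetylases Hdac4, Hdac5, Hdac7 and Hdac9 shuttle between cytoplasm and nucleus and bind Mef2 factors. At none of their 4 TSSs did either library reach 2 times the local level, where 45.8% (Msl1) and 41.5% (Nsl1) of all TSSs did. Hdac9 held 4 Msl1 reads, a ratio of 0.65 (0.18 to 1.66), and 8 Nsl1 reads, a ratio of 0.90 (0.39 to 1.78), and it was the only member with fewer than 100 reads of both libraries together within 2 kb. Hdac4 held 19 Msl1 reads, a ratio of 1.31 (0.79 to 2.05), and 10 Nsl1 reads, a ratio of 0.82 (0.39 to 1.5), the lowest of Nsl1. At these genes a level above the surroundings was not detectable at this depth. Hdac7 had ratios of 1.58 for Msl1 and 1.06 for Nsl1, and both intervals included 1. Hdac5 had 1.82 for Msl1 (1.30 to 2.48) and 1.2 for Nsl1 (0.79 to 1.75), so that only its Msl1 interval lay above 1. Within 250 bases its Msl1 ratio was 1.09.

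Hdac10, a class IIb enzyme that deacetylates polyamines, and Hdac11, the single class IV enzyme, held mainly Nsl1 reads. At Hdac10, 17 Msl1 reads gave a ratio of 0.92 (0.54 to 1.47) and 36 Nsl1 reads gave 2.21 (1.55 to 3.06), and these intervals did not overlap. At Hdac11, 18 Msl1 reads gave 1.83 (1.08 to 2.89) and 38 Nsl1 reads gave 2.84 (2.01 to 3.90). A start of Tubgcp6 lies 5613 bases downstream of the TSS of Hdac10, and the map of reads by distance shows a dense stretch of Nsl1 reads there.

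The sirtuins are deacetylases and deacylases of several compartments, with Sirt1, Sirt6 and Sirt7 in the nucleus, Sirt2 mainly in the cytoplasm and Sirt3, Sirt4 and Sirt5 in mitochondria. The Nsl1 ratio was higher than the Msl1 ratio at 7 of 7 sirtuin genes, where 52% of all TSSs had this order, and it was at least 2 at all 7 (41.5% of all TSSs) and at least 3 at 4 of them (24.2% of all). This order turned at Sirt1 with a window of 1000 bases (Nsl1 1.92 and Msl1 2.18) and at Sirt5 with a window of 250 bases (Nsl1 3.34 and Msl1 3.55). Sirt6 held 88 Nsl1 reads, a ratio of 5.96 (4.78 to 7.34), the highest Nsl1 ratio of the members and above 93.2% of all TSSs, and 41 Msl1 reads, a ratio of 3.25 (2.33 to 4.41). At Sirt7, the 105 Nsl1 reads were the most of any member and gave 4.21 (3.44 to 5.10), and 82 Msl1 reads gave 2.83 (2.25 to 3.52). Its local level was also the highest, so that its ratio was below that of Sirt6 despite more reads. Sirt5 held 46 Nsl1 reads, 3.50 times the local level (2.56 to 4.66), and 27 Msl1 reads, 2.82 times (1.86 to 4.10). Sirt1 held 38 Nsl1 reads, a ratio of 3.24 (2.29 to 4.45), and 13 Msl1 reads, a ratio of 1.38 (0.74 to 2.36). For Sirt2, Sirt3 and Sirt4, the Nsl1 ratios were 2.49, 2.83 and 2.24 and the Msl1 ratios 1.42, 2.56 and 1.77, with overlapping intervals. Sirt2 and Sirt3 share their promoters with divergent genes, Nfkbib at a distance of 112 bases and Psmd13 at 99 bases, and reads of these starts fall in the same window. At Sirt3, the 200 bases with most Nsl1 reads, 42 reads, lay 550 bases upstream of its TSS, within 53 bases of another start of Psmd13. Within 500 bases, Sirt6 was the only sirtuin gene at which both libraries reached 3. Within 250 bases both also reached it at Sirt5, and within 1000 bases the Msl1 ratio of Sirt6 was 2.77.

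Sin3a and Sin3b are the scaffolds of the Sin3 deacetylase complexes, and Ing1 and Ing2 are their subunits that bind trimethylated lysine 4 of histone H3. At all 4 genes the Msl1 ratio was the higher value, as at 45.7% of all TSSs, but the intervals of the libraries lay apart at Sin3a alone. Sin3a held 69 Msl1 reads, a ratio of 5.43 (4.23 to 6.88) and above 97.6% of all TSSs, and 20 Nsl1 reads, a ratio of 1.69 (1.04 to 2.62), and the intervals did not overlap. Ing2 held 52 Msl1 reads, 3.97 times the local level (2.97 to 5.21), and 35 Nsl1 reads, 2.61 times (1.82 to 3.63), and AA386476 starts on the other strand 165 bases downstream of it. At Sin3b, 49 Msl1 reads gave 3.58 (2.65 to 4.73) and 46 Nsl1 reads gave 3.03 (2.22 to 4.04), and within 250 bases the order turned, to 2.19 for Msl1 and 3.82 for Nsl1. At Ing1 the ratios were 2.36 (1.58 to 3.40) for Msl1 and 1.86 (1.22 to 2.73) for Nsl1. A divergent gene, 2700012I20Rik, starts 363 bases upstream of Sin3a, but the 200 bases with most Msl1 reads, 54 reads, lay 250 bases downstream of the Sin3a TSS.

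Mta1 and Mta2 are scaffolds of the NuRD complex, and Rcor1 links Hdac1 and Hdac2 to the demethylase Kdm1a in the CoREST complex. Mta2 held 49 Msl1 reads, a ratio of 2.20 (1.63 to 2.91), and 41 Nsl1 reads, a ratio of 2.30 (1.65 to 3.12). Mta1 held 24 Msl1 reads, a ratio of 1.46 (0.93 to 2.17), and 16 Nsl1 reads, a ratio of 1.02 (0.59 to 1.66), so both intervals included 1. Within 2 kb, both intervals of Mta1 lay above 1, with 1.79 (1.48 to 2.15) for Msl1 and 1.28 (1.02 to 1.59) for Nsl1. Rcor1 held 9 Msl1 reads, a ratio of 0.75 (0.34 to 1.43), and 21 Nsl1 reads, a ratio of 1.49 (0.92 to 2.27). The low Msl1 value of Rcor1 was limited to the window at the TSS. From 500 to 2000 bases downstream it held 5.63 times as many Msl1 reads per kb as in that window (2.81 to 12.8), and the 200 bases with most Msl1 reads lay 600 bases downstream.

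Among writers with enzymatic activity, Crebbp and its paralogue Ep300 encode broad coactivators that acetylate histones at enhancers and promoters, and Ncoa1, Ncoa2 and Ncoa3 encode coactivators of nuclear receptors. For these 5 genes the median Msl1 ratio was 3.19, with 3 of 5 at 3 or more (23.5% of all TSSs), and none of the 5 Nsl1 ratios reached 3 (24.2% of all). Ncoa2 held 54 Msl1 reads, a ratio of 6.02 (4.52 to 7.86) and above 98.5% of all TSSs, and 15 Nsl1 reads, a ratio of 1.27 (0.71 to 2.09). Its intervals did not overlap, and the Nsl1 interval included 1. Ncoa3 also held 54 Msl1 reads, a ratio of 3.58 (2.69 to 4.67), with 36 Nsl1 reads and a ratio of 2.76 (1.93 to 3.82). Ep300 held 40 Msl1 reads, a ratio of 3.19 (2.28 to 4.35), and 24 Nsl1 reads, a ratio of 2.02 (1.29 to 3.01). Crebbp was lower in both libraries, at 2.34 (1.52 to 3.46) and 1.63 (0.95 to 2.62), and the intervals of the paralogues overlapped. Within 250 bases Crebbp had 0.94 for Msl1 and 0.77 for Nsl1. For Msl1, Ncoa1 differed from the other Ncoa genes, with 12 reads and a ratio of 1.31 (0.67 to 2.28). Its 20 Nsl1 reads gave a ratio of 1.95 (1.19 to 3.01), between those of Ncoa2 and Ncoa3. The Msl1 ratio of Ncoa1 was 1.96 within 250 bases and 2.67 within 1000 bases. As at Rcor1, its Msl1 reads lay further on, at 3.56 times the density per kb of the TSS window (1.90 to 7.24). The high Msl1 values of Ep300, Ncoa3 and Epc2 lay mostly outside the innermost bases. With a window of 250 bases on each side the Msl1 ratios were 1.28 at Ep300, 2.39 at Ncoa3 and 2.05 at Epc2, and 3 writers in place of 6 reached 3, where 18.5% of all TSSs did in this window.

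In the Tip60 complex, Trrap is a large scaffold that the Gcn5 complexes also use, Ep400 is the remodelling ATPase, Epc1 and Epc2 are homologues of enhancer of polycomb that hold the catalytic module, and Ing3 binds methylated histone H3. Over these 5 genes, Msl1 ratios ran from 1.44 to 8.73 and Nsl1 ratios from 1.52 to 4.43. Epc1 held 94 Msl1 reads, a ratio of 8.73 (7.06 to 10.7), which was the highest of the members and above 99.8% of all TSSs, and 24 Nsl1 reads, a ratio of 2.33 (1.49 to 3.46). The 200 bases with most Msl1 reads held 109 reads and lay 550 bases downstream, partly outside the window, and with a window of 1000 bases on each side the Msl1 ratio was 11.2. Its homologue Epc2 held 34 Msl1 reads, a ratio of 3.87 (2.68 to 5.41), and 30 Nsl1 reads, a ratio of 3.0 (2.03 to 4.29). Within 500 bases Ep400 showed the reverse of Epc1, with 61 Nsl1 reads and a ratio of 4.43 (3.39 to 5.69) but 25 Msl1 reads and a ratio of 1.44 (0.93 to 2.13). The 200 bases with most Msl1 reads at Ep400 lay 500 bases downstream, at the edge of that window. Within 2 kb its Msl1 to Nsl1 ratio, per read of each library, was 1.05 times the median of all TSSs with at least 100 reads. Ing3 held 41 Nsl1 reads, a ratio of 4.39 (3.15 to 5.95), and 16 Msl1 reads, a ratio of 1.98 (1.13 to 3.22). The libraries' intervals did not overlap at Epc1 and Ep400 and overlapped slightly at Ing3. At the annotated start used for Trrap, the ratios were 1.5 (0.90 to 2.34) for Msl1 and 1.52 (0.93 to 2.35) for Nsl1, and both intervals included 1.

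The Moz, Morf and Hbo1 acetyltransferases are held by the scaffold proteins Brd1, Brpf1 and Brpf3 together with Ing4 or Ing5, which bind methylated histone H3. Brpf1 was high in both libraries, with 70 Msl1 reads and a ratio of 4.96 (3.86 to 6.26) and 62 Nsl1 reads and a ratio of 4.04 (3.10 to 5.18). It was the only member whose intervals both lay above 3, while the Msl1 interval did so at 5 members and the Nsl1 interval at 6. The share of all TSSs with such intervals was not counted. Brpf3 held 29 Msl1 reads, a ratio of 2.13 (1.42 to 3.05), and 16 Nsl1 reads, a ratio of 1.15 (0.66 to 1.87). At Brd1, 30 Msl1 reads gave 1.57 (1.06 to 2.24) and 12 Nsl1 reads gave 0.85 (0.44 to 1.49), the second value from the bottom for Nsl1. The Ing genes of these complexes went the other way. Ing4 held 90 Nsl1 reads, a ratio of 5.46 (4.39 to 6.71), and 28 Msl1 reads, a ratio of 1.8 (1.2 to 2.60), with intervals apart. Ing5 held 30 Nsl1 reads, 2.84 times the local level (1.92 to 4.06), and 17 Msl1 reads, 1.43 times (0.83 to 2.29). Dtymk starts 2031 bases upstream of Ing5, and the 200 bases with most Nsl1 reads within 2 kb of Ing5 lay 1900 bases upstream of it.

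Brd2, a BET protein whose bromodomains bind acetylated lysine, held 47 Msl1 reads, a ratio of 3.28 (2.41 to 4.36), and 37 Nsl1 reads, a ratio of 2.51 (1.76 to 3.45). Its Msl1 reads reached far into the gene. From 2 to 5 kb downstream the Msl1 density was 6.63 times the local level, the highest of the members, whereas the Nsl1 density was 1.67 times. A further annotated start of Brd2, 3828 bases downstream, held 122 Msl1 reads, 9.32 times its local level (7.74 to 11.1), and 19 Nsl1 reads, 1.28 times (0.77 to 2.0). Reads at this inner start and reads that spread from the first start cannot be told apart.

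**Figure D2:**
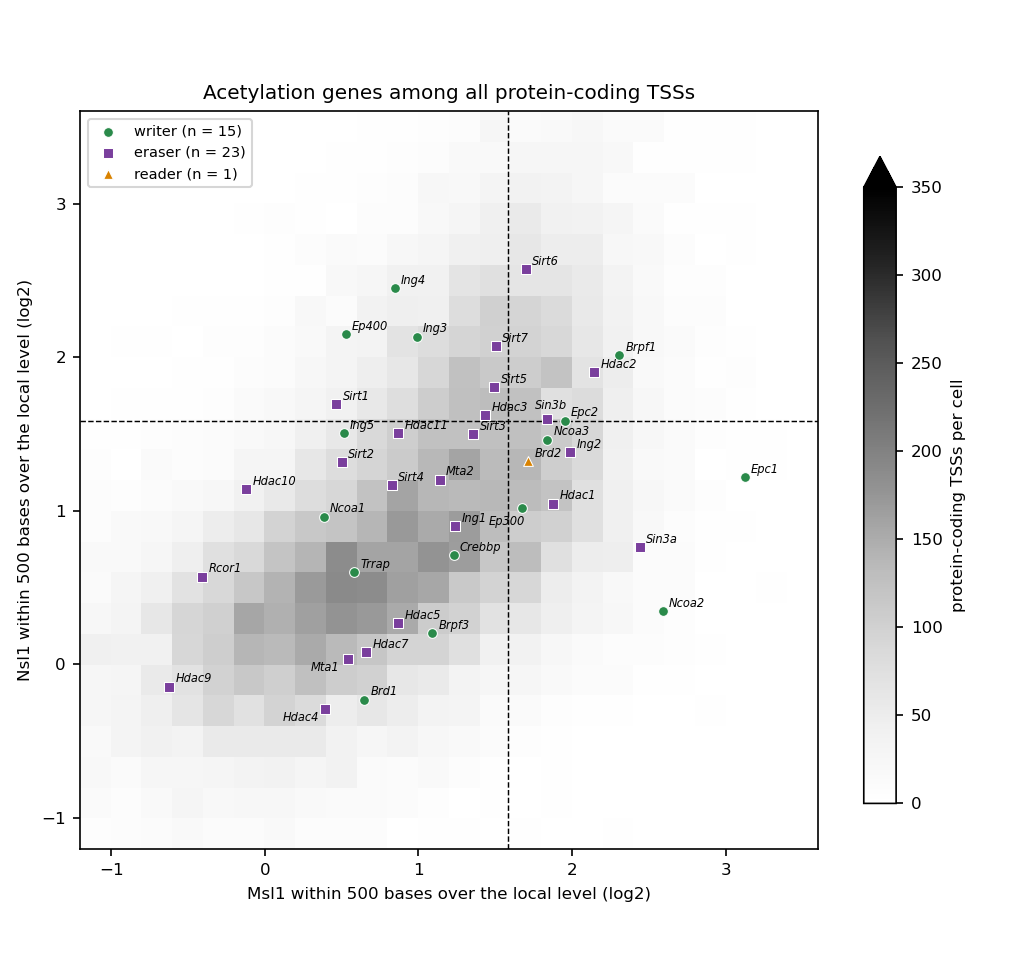
Msl1 ratio (x axis) against Nsl1 ratio (y axis), both as log2 of reads within 500 bases over the local level, for 15 writers, 23 erasers and 1 reader. Grey cells count all protein-coding TSSs and the dashed lines mark a ratio of 3. Epc1, Ncoa2 and Sin3a lie to the lower right (Msl1 ratios of 8.73, 6.02 and 5.43), and Ing4 and Ep400 to the upper left (Nsl1 ratios of 5.46 and 4.43).

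Over the list, the interval of the Msl1 ratio lay wholly above that of Nsl1 at 3 members, Sin3a, Ncoa2 and Epc1, where 6.1% of all TSSs had such a difference. The reverse held at 4 members, Hdac10, Sirt6, Ep400 and Ing4, where 10.6% of all TSSs had it. Both numbers are close to these shares.

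The medians of writers and erasers at the TSS were close over all genes of each class. The median Msl1 ratio was 2.13 for the 15 writers and 2.20 for the 23 erasers, and the median Nsl1 ratio was 2.33 and 2.30. With enzymes alone the medians within 500 bases lay further apart. For Msl1 they were 3.19 for the 5 writers, which include Ncoa1, Ncoa2 and Ncoa3, and 1.83 for the 16 erasers. For Nsl1 they were 1.95 and 2.66. Other windows changed this. Within 250 bases the Msl1 median was 1.96 for these writers and between 1.57 and 1.58 for these erasers. The Nsl1 median there was 2.34 and between 2.45 and 2.54. Within 1000 bases both Nsl1 medians lay between 1.92 and 2.07. The Msl1 medians stayed apart there, at 3.07 for these writers and between 1.77 and 1.87 for these erasers. A Msl1 ratio of at least 3 was found at 6 of 15 writers and 6 of 23 erasers, beside 23.5% of all TSSs. A Nsl1 ratio of at least 3 was found at 5 of 15 writers and 7 of 23 erasers, beside 24.2% of all TSSs. The spread within each class was larger than the difference between classes, with Msl1 ratios of writers from 1.31 to 8.73 and of erasers from 0.65 to 5.43. Of the 10 writer genes for complex subunits, 5 had a Nsl1 ratio of at least 3, against none of the 5 for writer enzymes, where 24.2% of all TSSs had it. Other choices changed that count, since Ep300 had a Nsl1 ratio of 3.65 at its RefSeq start and Ncoa3 one of 3.06 within 250 bases. Of the acetyltransferase genes outside the 39, Kat5 (6.89) and Taf1 (6.24) reached 3, and Kat2a, Kat2b, Myst2, Myst3, Myst4 and Hat1 did not, with 1.59 to 2.82. The Msl1 ratios of these genes were 3.29 at Myst2, 3.19 at Taf1 and 3.13 at Kat2b, and from 0.86 to 2.32 at the others. A Nsl1 ratio of at least 2 was found at all 7 sirtuin genes and at none of the 4 class IIa genes, where 41.5% of all TSSs had it. With a window of 1000 bases, Sirt1 (1.92) and Sirt4 (1.75) fell below 2, and at other annotated starts Hdac4 (2.12) and Hdac9 (2.07) lay above it. The Msl1 ratio was at least 2 at 4 of 4 Sin3 subunit genes and at 3 of 3 class I genes, where 45.8% of all TSSs passed, and within 250 bases Hdac3 had 1.57. Genes are not replicates, so these counts describe the lists and carry no test.

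At most members, as at most TSSs in general, the Msl1 reads reached further downstream of the TSS than the Nsl1 reads. The downstream ratio, which is the density of reads between 500 and 2000 bases downstream over the density within 500 bases, had a median of 0.92 for Msl1 and 0.54 for Nsl1, against 0.82 and 0.65 over all TSSs. It was higher for Msl1 than for Nsl1 at 29 of the 38 members with at least 100 reads within 2 kb, where 72.1% of all such TSSs had this order, and at 30 of 39 with Hdac9. The Msl1 interval lay wholly above the Nsl1 interval at 9 members, namely Hdac2, Sirt1, Sirt6, Mta2, Rcor1, Ncoa1, Ep400, Ing4 and Brd2, against 14.2% of all TSSs. The members had more reads than most TSSs, with a median of 108 Msl1 reads within 2 kb against 62 over all TSSs, and more reads give narrower intervals. The reverse was found at Sin3a alone, with 0.32 for Msl1 (0.20 to 0.49) and 1.03 for Nsl1 (0.57 to 1.91), against 0.618% of all TSSs. At Ing4, the Nsl1 ratio was 0.13 (0.07 to 0.21), with 90 of its 127 Nsl1 reads within 2 kb lying within 500 bases, and the Msl1 ratio was 0.64 (0.36 to 1.13). At Sirt1 the values were 2.72 for Msl1 (1.46 to 5.43) and 0.39 for Nsl1 (0.22 to 0.67). Brd1 was the single member with the Nsl1 ratio above 2, at 2.28 (1.17 to 4.76), on 12 reads at the TSS. The medians of writers and erasers were close here too, with Msl1 medians of 0.94 and 0.85 and Nsl1 medians of 0.51 and 0.57.

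Further into the gene, from 2 to 5 kb downstream, 7 of 39 members had a Msl1 density of at least 1.5 times the local level, where 21.5% of all TSSs did, and 1 member, Brd2, had such a Nsl1 density, against 7.57% of all TSSs. After Brd2, Sirt1 had the highest Msl1 density there, 2.30 times the local level, followed by Ing1 with 1.93 and Hdac5 with 1.87. The position of the 200 bases with most reads within 2 kb was taken for members with at least 50 reads there. It had a median of 400 bases downstream of the TSS for Msl1 (37 members) and 50 bases downstream for Nsl1 (37 members), and over all TSSs with as many reads it was 300 bases for Msl1 and at the TSS itself for Nsl1. It lay within 200 bases of the TSS at 5 members for Msl1, where 22.4% of all such TSSs had it, and at 14 for Nsl1, where 49.2% did. In the 36 members with enough reads in both libraries, the Msl1 position lay downstream of the Nsl1 position at 21, with a median of 275 bases, where 68.5% of all such TSSs had this order, with a median of 250 bases.

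**Figure D3:**
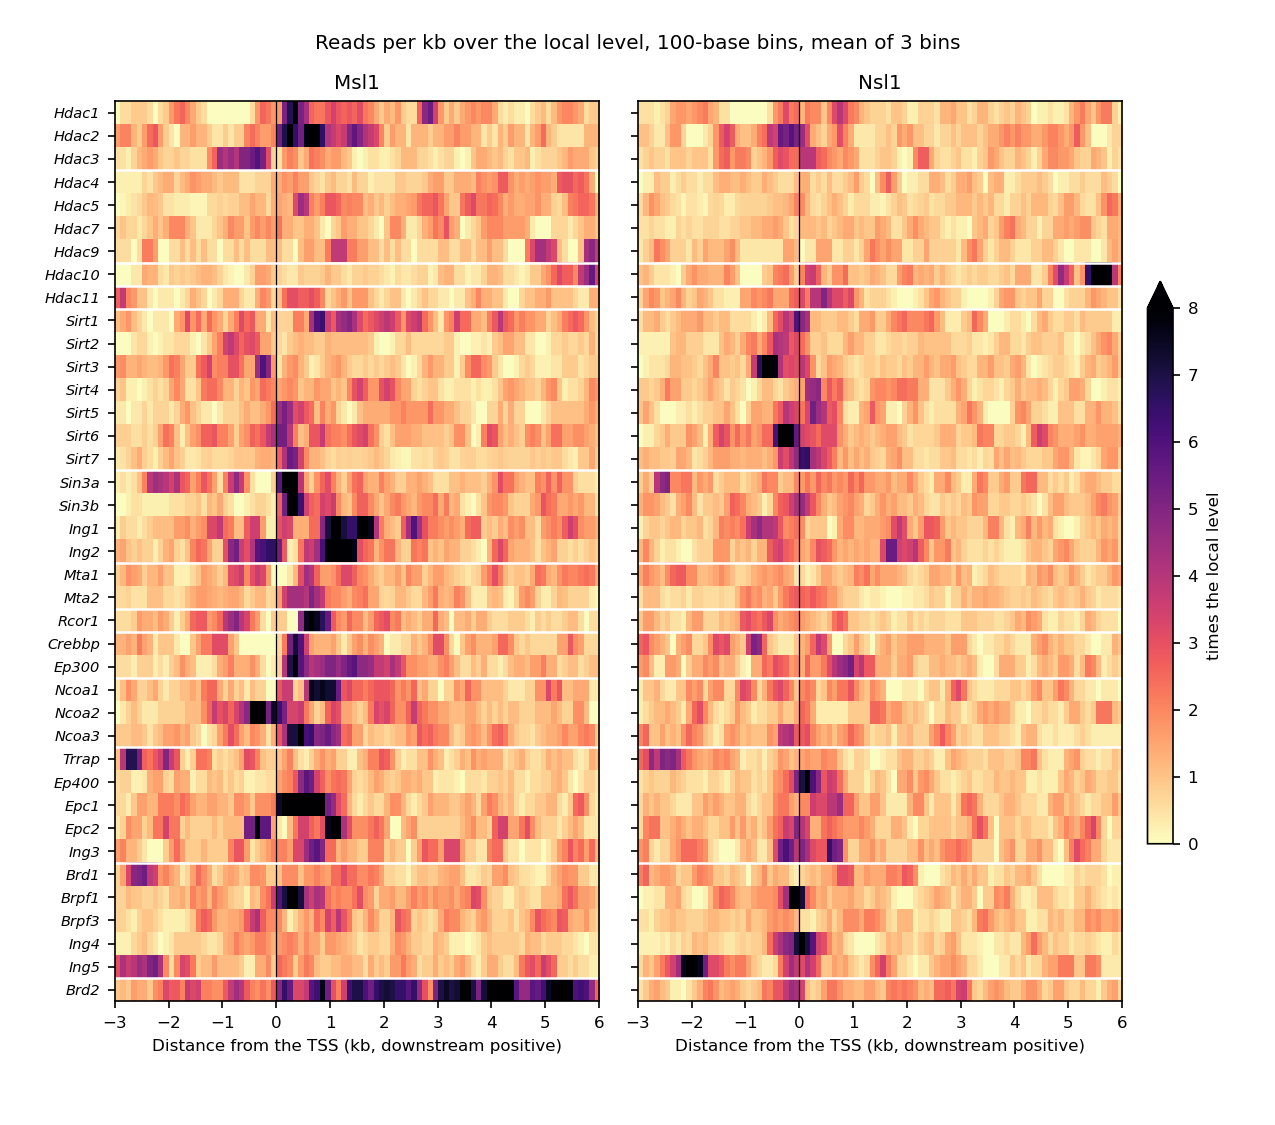
Reads per kb over the local level (colour, times) by distance from the TSS (kb, downstream positive) at the 39 genes, for Msl1 (left) and Nsl1 (right), as a mean of 3 bins of 100 bases. Dark Msl1 bins lie mostly downstream of the TSS, at Epc1, Ing2, Rcor1 and Ncoa1 up to 1 kb or more away, and run to 6 kb at Brd2. Dark Nsl1 bins lie on both sides of the TSS. The 200 bases with most Nsl1 reads lay within 200 bases of it at 14 of 37 members, against 49.2% of all such TSSs.

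**Figure D4:**
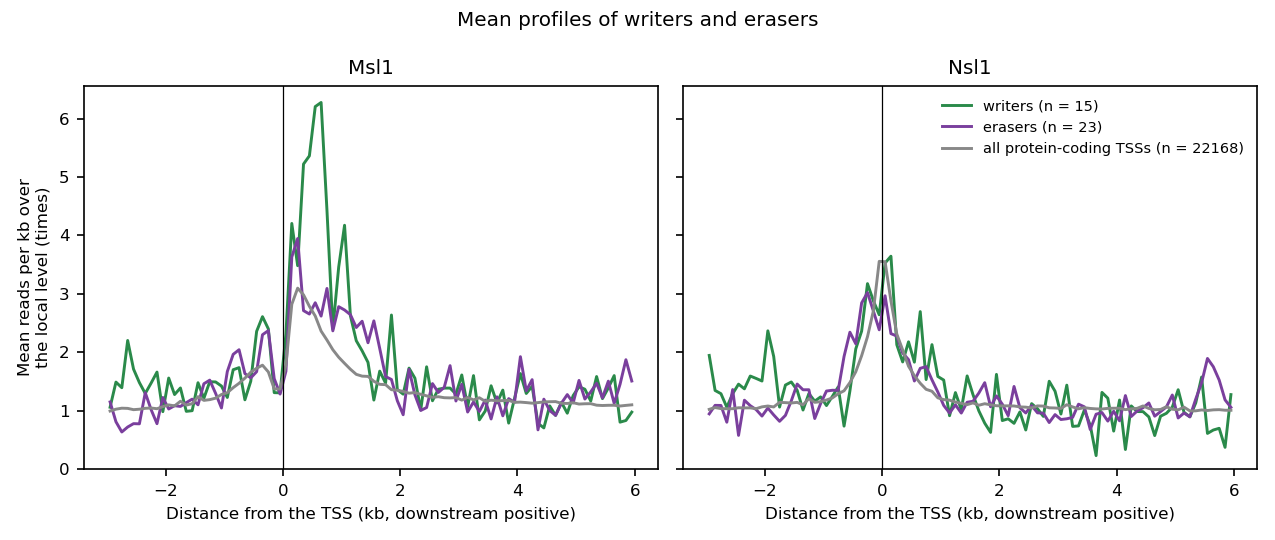
Mean reads per kb over the local level (times) by distance from the TSS (kb, downstream positive) for writers (green, n = 15), erasers (purple, n = 23) and all protein-coding TSSs (grey, n = 22168), in bins of 100 bases. The highest Msl1 bin of the writers reached 6.28 at 650 bases, that of the erasers 3.95 at 250 bases and that of all TSSs 3.10 at 250 bases, while the highest Nsl1 bins of writers and erasers reached 3.64 and 3.02.

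The height and place of the highest Msl1 bin rested on single genes in both classes. With Epc1 left out, the highest Msl1 bin of the other 14 writers was 4.21 in place of 6.28 and lay at 1050 bases, and with Epc2 left out as well it was 4.19 at 350 bases. With Sin3a left out, the highest Msl1 bin of the other 22 erasers was 3.20 in place of 3.95 and lay at 750 bases. The highest Nsl1 bin of the writers was 3.64 with Epc1 and 3.71 without it, against 3.56 for all TSSs, and with Ing4 left out it was 3.18.

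The number of Msl1 reads within 2 kb was divided by the number of Nsl1 reads, each per read of its library. The median over all 14614 TSSs with at least 100 reads was 1.28, and the members had a median of 1.64, with 1.77 for writers and 1.54 for erasers. For the further genes of histone acetylation counted below, the order was the reverse, with medians of 1.25 for 25 writers and 1.68 for 28 erasers. The ratio was over 1.5 times the median of all TSSs at 10 members, where 15.5% of all TSSs were, and under 1/1.5 of it at 5 members, where 15.8% were. With reads within 500 bases the second count was 10, where 26.3% of all TSSs were. Its interval lay wholly above that median at 18 members, against 22.1% of all TSSs, and wholly below it at 8 members, against 20.4%. More reads give narrower intervals, and read numbers were not matched between the members and these TSSs. The highest value was that of Epc1, with 275 Msl1 and 67 Nsl1 reads and a ratio of 5.24 (4.0 to 6.95), which was 4.10 times the median. Brd2 followed with 232 and 107 reads and a ratio of 2.77 (2.19 to 3.52), Ing2 with 217 and 103 reads and 2.69 (2.12 to 3.44), and Sin3a with 155 and 74 reads and 2.68 (2.02 to 3.58). The interval of Epc1 lay above those of the next 3 genes, which overlapped one another. The other 6 members over 1.5 times the median were Mta2, Ncoa2, Ncoa3, Hdac5, Brd1 and Rcor1.

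At the other end, Hdac11 held 51 Msl1 and 92 Nsl1 reads, a ratio of 0.71 (0.49 to 1.01). Hdac10 held 57 and 93 reads, a ratio of 0.78 (0.55 to 1.10), Ing4 held 79 and 127 reads, a ratio of 0.79 (0.59 to 1.06), and Sirt5 held 57 and 89 reads, a ratio of 0.82 (0.58 to 1.15). Ing5, at 0.84, was the other member under 1/1.5 of the median. The intervals of these 5 genes overlapped one another and lay wholly below the median of all TSSs. Among erasers, the enzyme genes had a median of 1.10 and the complex subunit genes a median of 1.96. At Rcor1 the ratio of 1.96 was set by reads beyond the TSS, and within 500 bases it was 0.50 times the median of all TSSs in place of 1.54 times.

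**Figure D5:**
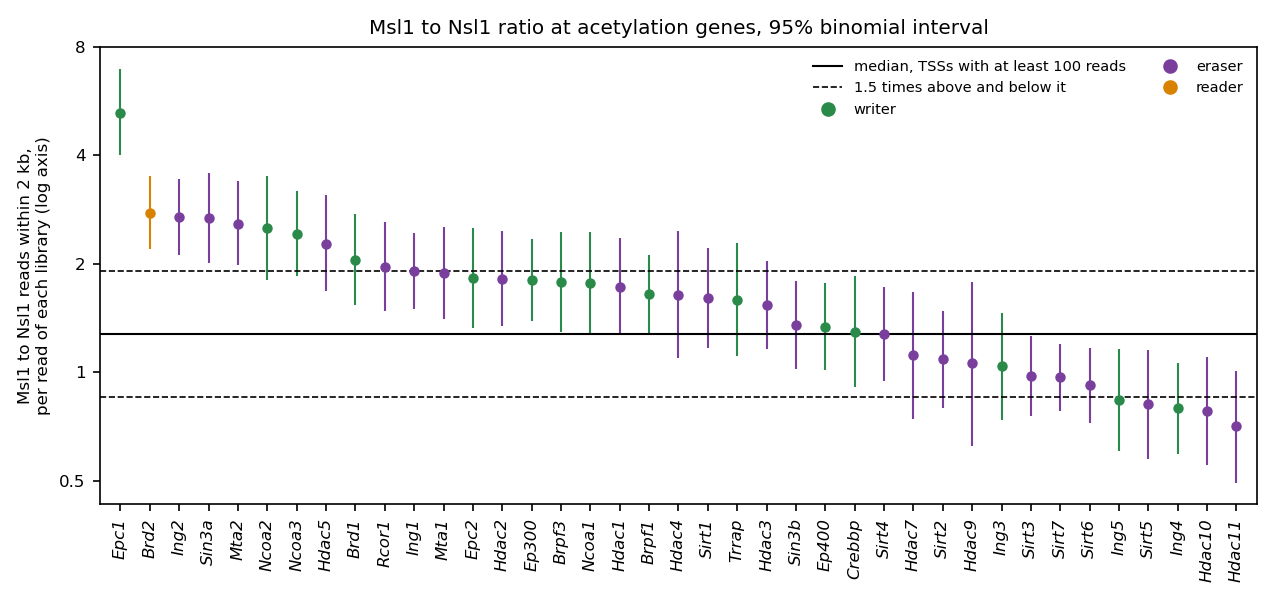
Msl1 reads over Nsl1 reads within 2 kb of the TSS, per read of each library (log axis), for the 39 genes in descending order, with exact 95% binomial intervals. The solid line marks the median of TSSs with at least 100 reads (1.28) and the dashed lines 1.5 times above and below it. Epc1 (5.24) stands above the other genes, and Ing5, Sirt5, Ing4, Hdac10 and Hdac11 lie below the lower dashed line.

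The promoters of the members, taken as the 300 bases from 250 before to 50 after the TSS, were rich in CpG. The ratio of observed to expected CpG was at least 0.6 at 32 of 39 members (82.1%), against 46.4% of all protein-coding TSSs, with a median of 0.86. All 13 members with a Msl1 ratio of at least 3 were among these 32, and so were 11 of the 12 for Nsl1, the other being Sirt5. Of all TSSs with such CpG content, 42.3% reached a Msl1 ratio of 3 and 43.4% a Nsl1 ratio of 3, so that the 13 and 11 of 32 members are close to or below that share. The 7 members with less CpG were Hdac4, Hdac7, Hdac9, Hdac11, Sirt5, Trrap and Brd1, and their median ratios were 1.57 for Msl1 and 1.06 for Nsl1, against 2.46 and 2.50 for the 32. For Hdac4, Trrap and Brd1, and by 200 and 150 bases for Hdac7 and Hdac11, the start used here was not that of RefSeq. With the RefSeq starts, the Msl1 median of these 7 was 1.58, close to the 1.57 above, whereas the Nsl1 median was 2.12 in place of 1.06. Across the 39 genes, the CpG ratio and the Nsl1 ratio had an r of 0.45 and a rho of 0.39, and the CpG ratio and the Msl1 ratio an r of 0.33 and a rho of 0.16, as a description over genes of the same libraries. Over all TSSs these values were 0.39 and 0.56 for Nsl1 and 0.47 and 0.62 for Msl1.

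Of the motifs searched on both strands in these 300 bases, the GC box GGGCGGG, which Sp factors bind, was found at 22 of 39 members and at 32.9% of all promoters. The letters CCAAT were found at 13 members (37.9% of all), the Ets motif CCGGAAG at 4 (11% of all) and the Yy1 motif AAGATGG at 3 (6.86% of all). The Creb motif TGACGTCA stood at 2 members, Ing3 and Ing4 (2.36% of all), the E-box CACGTG at 3 (7.77% of all) and TATAAA at 2 (13.4% of all). In the stretches printed above, a GC box lies 25 bases before the TSS of Sirt6, and the Creb motif lies 162 bases before that of Ing4. The promoter of Sin3a holds 3 GC boxes and 2 CCAAT boxes. A gene on the other strand started within 1 kb upstream at 6 members, against 11.7% of all TSSs, and these were Hdac3, Sirt2, Sirt3 and Sin3a with the neighbours named above, Ncoa3 with Gm11464 at 119 bases and Ep400 with Gm15559 at 232 bases.

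Some low values depended on which annotated start was taken. RefSeq, on mm9, listed a start for 33 members, at the same place within 100 bases for 24 and elsewhere for 9. The RefSeq start of Trrap lies 2295 bases upstream of the one used, and there Msl1 reached 4.52 (3.42 to 5.85) and Nsl1 3.46 (2.53 to 4.61), in place of 1.5 and 1.52. For Ep300 it lies 863 bases downstream, with 4.88 (3.73 to 6.26) and 3.65 (2.64 to 4.92). For Hdac4 it lies 31948 bases upstream, and Nsl1 was 2.12 (1.4 to 3.09) there, while Msl1 was 0.94 (0.49 to 1.65). At the RefSeq start of Brd1, 3448 bases upstream, Nsl1 was 1.54 (0.95 to 2.35) and Msl1 0.53 (0.25 to 0.97). The sequences printed for Hdac4 and Brd1 therefore belong to GENCODE starts that RefSeq does not share. A GENCODE start of Sirt1 that lies 42669 bases upstream had a Msl1 ratio of 3.20 (2.05 to 4.77) and a Nsl1 ratio of 1.77 (1.08 to 2.74), the reverse of the order at the start used (1.38 and 3.24). Of further GENCODE starts, one of Sin3a 4336 bases upstream had a Msl1 ratio of 4.16 and one of Epc1 25252 bases upstream had 3.41, so that Msl1 stood above its surroundings at more than 1 start of these genes.

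The same counts were made for other genes of histone acetylation, most of them enzymes or subunits of these complexes. Of 28 further writer genes 25 were found in the annotation, and 7 of them reached a Msl1 ratio of 3 (23.5% of all TSSs), 13 a Nsl1 ratio of 3 (24.2% of all) and 4 both (11.8% of all), with medians of 2.20 and 3.04. Of 28 further eraser genes all were found, and 11 reached 3 for Msl1, 10 for Nsl1 and 5 for both, with medians of 2.39 and 2.54, beside the same shares of all TSSs. The highest Nsl1 count was thus that of the further writers, among them Kat5, the catalytic subunit of the Tip60 complex, with a Nsl1 ratio of 6.89 and a Msl1 ratio of 1.47.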

How the data were processed

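The authors aligned single-end ChIP-seq reads of 1 Msl1 and 1 Nsl1 library to mm9 (CASAVA 1.8.2 and Bowtie 0.12.7 are named in the submitters' processing notes) and deposited them as a list of alignments with start, end and strand, not normalized. The score deposited by the authors was 255 on every line and was not used. The files held 23888517 Msl1 reads and 26084098 Nsl1 reads, of which 18.3% and 4.56% of the nuclear reads repeated a position and strand and were dropped. Read starts were shifted towards fragment centres, by 103 bases for Msl1 and 69 for Nsl1 from the strand cross-correlation. No Input library was used here, whereas the authors normalized their densities to one, so a gain of reads at promoters apart from the antibody was not measured. The TSS of a gene was the GENCODE start with most protein-coding transcripts within 100 bases, and for Hdac4, a symbol of 2 genes, the longer gene was taken. Values were computed with numpy 2.4.6, scipy 1.17.1 and pandas 2.3.3 under Python 3.11.15, plots with matplotlib 3.10.9, and the counting was tested on simulated data. All 39 members are named, with sequences for the 3 highest and 3 lowest of Nsl1 and for 2 of the 4 highest of Msl1, of which the others are not reported here, and intervals for the 4 at each end. The members and lists were chosen with earlier results of these data known.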

Additional observations from a re-analysis of the deposited data

How the results depend on the processing

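In all, 12 other settings were tried, among them all reads kept, a shift of 100 bases, the most upstream start, the median of 1 kb bins as local level, enzymes alone, and the RefSeq start. The RefSeq start and the mean profiles without single genes were chosen after seeing the data. Of the summary values, 155 stayed within 1.5 times the reported count or within the spread, and 8 moved, all by the size of a window or the fold. With a fold of 2, 21 members passed for Msl1 (45.8% of all TSSs) and 25 for Nsl1 (41.5%). Within 250 bases of the TSS, 3 writers had a Msl1 ratio of at least 3 (18.5% of all TSSs). Within 1000 bases, 4 members had a Nsl1 ratio of at least 3 (13.7% of all TSSs), of which 2 were writers and 2 erasers. With reads within 500 bases in place of 2 kb, 10 members lay under 1/1.5 of the median Msl1 to Nsl1 ratio (26.3% of all TSSs), and Rcor1 changed side, from 1.54 to 0.504 times that median. With the downstream window from 1000 to 2000 bases, the median Nsl1 downstream ratio of writers was 0.433. Of the values of single genes, 700 were kept, 79 moved and 1 reversed. The moves were uneven between settings. All reads kept, a shift of 100 bases and the median of 1 kb bins moved none. Windows of 250 and of 1000 bases each moved 18 ratios and kept 60. With reads within 500 bases, 16 Msl1 to Nsl1 values moved, 1 reversed and 22 were kept. With RefSeq starts, 15 members passed for Msl1 and 16 for Nsl1, with no share of all TSSs, since RefSeq starts were matched for the members only. No paired analysis was possible because each antibody had 1 library. With 4 to 105 reads in a window, ratios under about 2 often could not be told from 1 at this depth.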
